A study of Mus musculus with 12 samples.

Results

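The genes of the interleukin-1 (IL-1) pathway and of the inflammasome were followed in the livers of 12 mice: the ligands Il1b and Il1a, the receptor antagonist Il1rn, the receptor chains Il1r1 and Il1rap, the related cytokine Il18 with its binding protein Il18bp, and Nlrp3, Casp1 and Gsdmd of the processing machinery. They were chosen by their symbols in the mouse GENCODE annotation, so that these are 10 of the 55414 Ensembl genes in the count table, and all 10 passed edgeR's filter on low counts. The mice were female C57Bl/6J animals of 8 to 12 weeks, in 4 groups of 3. Each mouse received 0.9% NaCl or 300 mg/kg FeSO4 by intraperitoneal injection, then PBS or 10 mg/kg dexamethasone (DEX, a synthetic glucocorticoid) 6 h later, and its liver was taken after another 2 h. The groups are written NaCl/PBS, NaCl/DEX, FeSO4/PBS and FeSO4/DEX. Whole liver was sequenced, so that fewer cells of a type and less RNA per cell cannot be told apart.

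IL-1α and IL-1β bind the receptor Il1r1, which then recruits the accessory chain Il1rap and signals through Myd88 and the Irak kinases. Il1rn encodes an antagonist that occupies Il1r1 without signalling, and the decoy receptor Il1r2 takes up ligand. IL-1β and IL-18 are made as precursors that caspase-1 cleaves once an inflammasome, such as the one built on Nlrp3, has formed, and caspase-1 also cleaves gasdermin D, which opens pores in the plasma membrane. In the liver, resident macrophages (Kupffer cells) and incoming leukocytes are known sources of IL-1β, hepatocytes respond to IL-1 with acute-phase proteins, and glucocorticoids are known to restrain transcription of Il1b.

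Il1b, Il1a and Il1rn lie on chromosome 2, with Il1b at chr2:129206490-129213059 and Il1a at chr2:129140291-129152098, both on the minus strand, and Il1rn at chr2:24226865-24241506 on the plus strand (GRCm39). Below are the 250 bases upstream of a RefSeq start site for the members whose mRNA changed after DEX in NaCl mice, apart from Il1r1, whose window reaches 66 bases into its annotated gene. Those of Il1rn, Casp1 and Nlrp3 reach 7, 9 and 1 bases into theirs. They are written 5′ to 3′ on the gene's own strand, with capitals for motif matches. RefSeq gives these windows on GRCm38.p6, and they were placed on GRCm39 by exact match, at chr2:129213060-129213309 for Il1b, chr11:59432145-59432394 for Nlrp3, chr9:5298267-5298516 for Casp1 and chr2:24226622-24226871 for Il1rn.
Il1b: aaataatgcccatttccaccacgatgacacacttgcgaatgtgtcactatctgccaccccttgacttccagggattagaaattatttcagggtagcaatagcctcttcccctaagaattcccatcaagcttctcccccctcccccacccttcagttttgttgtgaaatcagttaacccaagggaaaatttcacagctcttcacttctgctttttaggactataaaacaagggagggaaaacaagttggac
Nlrp3: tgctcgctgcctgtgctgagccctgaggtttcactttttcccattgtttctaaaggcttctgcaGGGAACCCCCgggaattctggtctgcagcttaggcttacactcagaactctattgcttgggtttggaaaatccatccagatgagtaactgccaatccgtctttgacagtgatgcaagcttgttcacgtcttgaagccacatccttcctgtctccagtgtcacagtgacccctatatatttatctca
Casp1: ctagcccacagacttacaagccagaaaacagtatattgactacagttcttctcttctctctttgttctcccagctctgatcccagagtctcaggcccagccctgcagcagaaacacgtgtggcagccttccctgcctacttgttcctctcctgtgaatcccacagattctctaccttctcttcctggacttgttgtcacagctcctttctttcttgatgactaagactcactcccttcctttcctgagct
Il1rn: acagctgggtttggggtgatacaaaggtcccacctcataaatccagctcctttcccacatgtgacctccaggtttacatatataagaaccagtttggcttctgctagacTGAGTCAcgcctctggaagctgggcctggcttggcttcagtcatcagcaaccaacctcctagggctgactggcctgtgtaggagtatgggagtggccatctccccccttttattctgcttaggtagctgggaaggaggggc
Both strands were searched for a glucocorticoid response element (GNACA and TGTNC with NNN between them), an AP-1 site (TGANTCA), a C/EBP site (TTGCNNAA) and the kB site that NF-kB binds. The Il1rn window shown held TGAGTCA, an AP-1 match 141 to 135 bases before the start, and the Nlrp3 window shown a kB match 186 to 177 bases before it. Both genes have further RefSeq start sites, 8438 and 8518 bases from the annotated gene start for Il1rn and 1118 bases from it for Nlrp3. The windows of those sites held none of the 4 motifs. The Il1b and Casp1 windows held none of the 4 motifs. Over 32851 RefSeq windows of 250 bases, 6.75% held the AP-1 motif, 7.25% the kB motif, 9.56% the C/EBP motif and 0.387% the glucocorticoid response element. Of the 10 members, 9 had a window, and no window of a member held the glucocorticoid response element as spelled here.

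The libraries held 16335651 to 23827340 counted reads, with a median of 19602514. Hmox1, the heme oxygenase that iron induces, had 427 to 791 normalized counts in the NaCl/PBS mice and 29684 to 40304 in the FeSO4/PBS mice. Fkbp5, a classical glucocorticoid target, had 1341 to 3654 in the NaCl/PBS mice and 9723 to 10944 in the NaCl/DEX mice. Tsc22d3 and Per1 had also been chosen to check the DEX labels. Tsc22d3 had 995 to 1699 in the NaCl/PBS mice and 3823 to 4330 in the NaCl/DEX mice. Per1 did not respond, with 696 to 967 and 735 to 835, which overlapped. For Hmox1 and Fkbp5 the highest NaCl/PBS value belonged to NaCl/PBS mouse 2. This mouse also stood apart from the other 2 NaCl/PBS mice in several genes described here, so results that rest on it are given with and without it. By the chi-square of counts per gene, FeSO4/PBS mouse 1 stood farthest from its group, at 81.4 and 64.9 against the other 2 mice, which differed by 22.0 from each other, and without it 2543 in place of 1892 genes were called for DEX in NaCl mice. The calls that changed among the 10 genes without it were those of Il1rn and Gsdmd after FeSO4 in PBS mice, given with those genes. FeSO4 moved the composition of the libraries: without TMM scaling, the median log2 fold change (LFC) of all tested genes after FeSO4 in PBS mice was -0.34, against -0.02 with it, and -0.18 without it after DEX in NaCl mice. LFCs are therefore given relative to that scaling, and the places where library size alone turned a sign are named.

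Without iron, 2 h of DEX lowered Il1b, Nlrp3 and Casp1 and raised Il1r1 and Il1rn. FeSO4 in PBS mice raised Il1r1 and Il1rn and lowered Il18bp and Casp1, and none of the 10 genes was called for DEX given after FeSO4. Among mice that had all received DEX, FeSO4 raised Il1b, Il1a, Nlrp3 and Il18 and lowered Il1rn and Il18bp. A gene was called where its edgeR FDR, the quasi-likelihood p adjusted by Benjamini and Hochberg over all 13857 tested genes, did not exceed 0.05.

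For DEX in NaCl mice, 5 of the 10 members were called, 2 higher and 3 lower, where 13.7% of all tested genes were called, 6.50% higher and 7.15% lower. The groups did not overlap for 7 members, 2 above and 5 below, and for 37.9% of all tested genes, 17.6% above and 20.3% below. For FeSO4 in PBS mice, 4 of the 10 were called, 2 in each direction, where 54.5% of all tested genes were called, 27.2% higher and 27.3% lower. There the groups did not overlap for 5 members, 2 above and 3 below, and for 60.0% of all tested genes, 29.0% above and 31.0% below. With 10 members, these counts were near that background. For FeSO4 in DEX mice, 6 of the 10 were called, 4 higher and 2 lower, where 43.3% of all tested genes were called, 22.4% higher and 20.9% lower. There 7 members did not overlap, 4 above and 3 below, against 55.9% of all tested genes, 28.8% above and 27.1% below. The median LFC of the members was -0.26 for DEX in NaCl mice, 0.06 for FeSO4 in PBS mice and 0.33 for FeSO4 in DEX mice, where the medians over all tested genes were -0.02, -0.02 and 0.01. With library size alone in place of TMM, the split of calls after FeSO4 in PBS mice went from 2 higher and 2 lower to 1 and 4 among the members, and from 3770 and 3783 to 2285 and 5829 among all tested genes. For DEX in NaCl mice it went from 901 and 991 to 618 and 1776 among all genes, with 2 members higher and 4 lower, and for FeSO4 in DEX mice from 3103 and 2902 to 2151 and 4146, with the members' counts as before. The comparisons of FeSO4 in PBS mice and of DEX in NaCl mice share the NaCl/PBS mice.

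For DEX in FeSO4 mice, 0 of the 10 members and 0% of all tested genes were called by edgeR. At an unadjusted p under 0.05 there was 1 member, Il1rn, and 900 of the 13857 genes (6.49%). The DESeq2 Wald test called 0 members and 11 genes. The groups did not overlap for 2 members, Il1b and Nlrp3, both below, and for 9.30% of all tested genes, 4.45% above and 4.85% below.

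**Figure D1:**
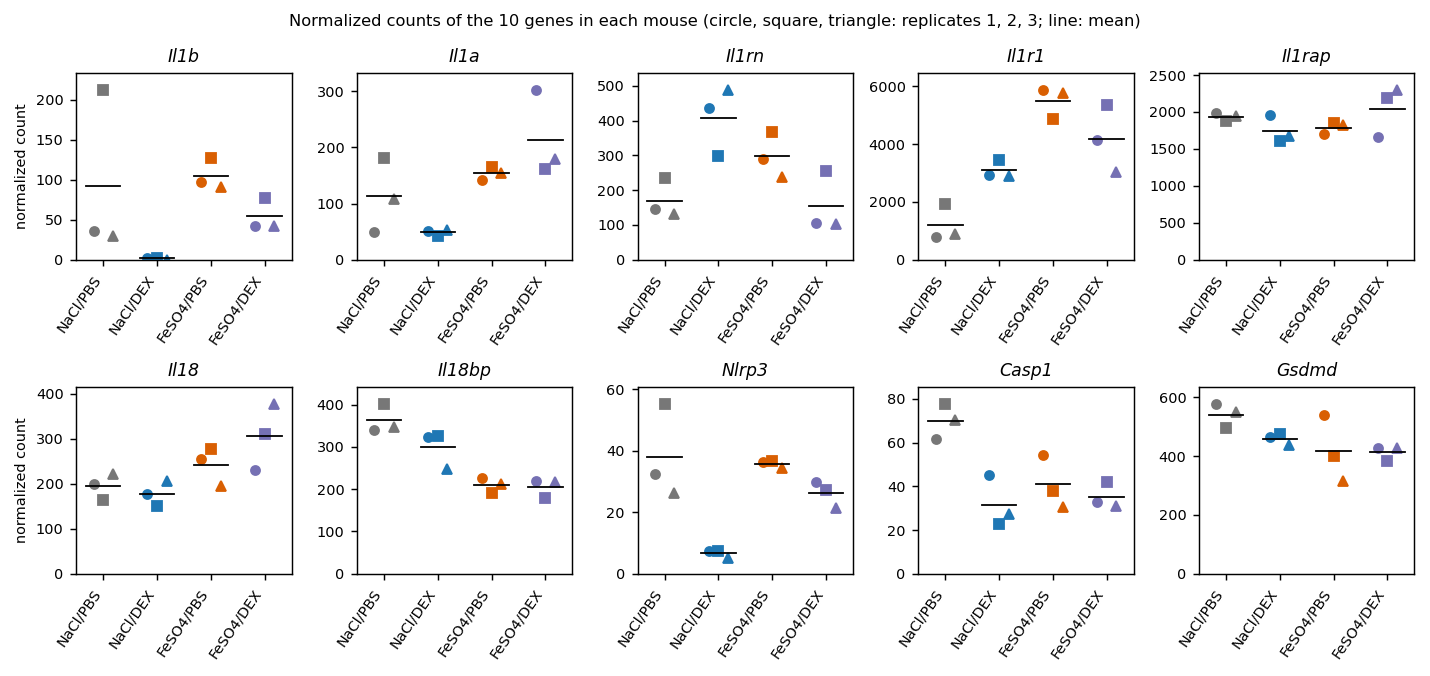
Normalized counts (y axis, linear, from 0) of the 10 genes in each of the 12 mice, by group (x axis), with the group mean as a line and the symbols standing for replicates 1, 2 and 3. Il1b and Nlrp3 are lowest in the NaCl/DEX mice, and Il1r1 is lowest in the NaCl/PBS mice. NaCl/PBS mouse 2 (square) lies above the other mice of its group for Il1b, Il1a, Il1rn, Il1r1 and Nlrp3.

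Il1b, the ligand IL-1β, had 36.0, 212 and 29.6 normalized counts in the 3 NaCl/PBS mice. In the NaCl/DEX mice it had 2.15, 2.82 and 0, from 2, 3 and 0 reads. The FeSO4/PBS mice had 97.8, 127 and 90.5, and the FeSO4/DEX mice 42.5, 77.5 and 42.8. The NaCl/DEX mice lay below all 9 other mice, and the FeSO4/DEX mice lay below the FeSO4/PBS mice without overlap. DEX in NaCl mice lowered Il1b (LFC -5.67 ± 0.95 SE, edgeR FDR = 0.0011), but with so few reads the fitted LFC depends on the prior count. By summed reads, 312 against 5, the level was 51.2-fold lower, with a 95% counting interval of 21.7 to 159 that leaves out the spread between mice. Without NaCl/PBS mouse 2 it was 19.8-fold lower (8.14 to 62.4), and the call held (edgeR FDR = 0.00033). The fitted LFC was then -4.19, and without NaCl/DEX mouse 2 it was -6.29.

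DEX in FeSO4 mice gave an LFC of -0.97 ± 0.60 for Il1b (edgeR FDR = 0.80), although its groups did not overlap. FeSO4 in DEX mice raised Il1b (LFC 4.91 ± 1.00, edgeR FDR = 0.0013), 31.4-fold by 137 against 5 summed reads with a counting interval of 13.1 to 98.1, and without NaCl/DEX mouse 2 the LFC was 5.52. FeSO4 in PBS mice gave an LFC of 0.20 ± 0.57 (edgeR FDR = 0.79). That value rested on NaCl/PBS mouse 2, since without it the LFC was 1.68 ± 0.38 (edgeR FDR = 0.0026), while without NaCl/PBS mouse 1 or 3 it was -0.19 or -0.22, and by library size alone -0.11.

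Neutrophils are a source of IL-1β, and their markers also moved with FeSO4. Of 12 neutrophil markers, 9 were tested, and 7 were called higher after FeSO4 in PBS mice as well as in DEX mice. Of all tested genes, 27.2% were called higher in PBS mice and 22.4% in DEX mice. Lcn2, which hepatocytes also make in the acute phase, was by far the most abundant of them. The sum over all 12 was 997 to 3448 normalized counts in NaCl/PBS mice and 4561 to 8429 in NaCl/DEX mice. It was 14798 to 45699 in FeSO4/PBS mice and 11308 to 16284.5 in FeSO4/DEX mice. Without Lcn2, left out after the values were seen, the sum over the other 11 fell rather than rose after DEX in NaCl mice. It was 139 to 322 normalized counts in NaCl/PBS mice and 97.7 to 129 in NaCl/DEX mice. After FeSO4 it was 844 to 998 in FeSO4/PBS mice and 627 to 739 in FeSO4/DEX mice. Ly6g, the defining marker, had 0 to 3 reads in every library. NaCl/PBS mouse 2 had the highest neutrophil sum without Lcn2 of its group, 322 against 139 and 163. The 12 markers of Kupffer cells and macrophages summed to 10430.1 to 12307 in NaCl/PBS mice and 10058 to 11585 in NaCl/DEX mice, and to 6195 to 7253 in FeSO4/PBS mice and 5225 to 8340 in FeSO4/DEX mice, with none of them at 0. The 6 monocyte markers, of which 4 were tested, summed to 109 to 137 in NaCl/PBS mice and to less in every other mouse, with 56.9 to 70.5 in NaCl/DEX mice, 63.1 to 82.7 in FeSO4/PBS mice and 48.8 to 68.0 in FeSO4/DEX mice. The part of these cells in the changes of the members was not tested.

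Il1a, the ligand IL-1α, had 48.9, 181 and 108 normalized counts in the NaCl/PBS mice, against 51.5, 42.3 and 52.4 in the NaCl/DEX mice. It had 142, 166 and 154 in the FeSO4/PBS mice and 302, 162 and 178 in the FeSO4/DEX mice. The NaCl groups overlapped through NaCl/PBS mouse 1, and every FeSO4/DEX mouse lay above every NaCl/DEX mouse. FeSO4 in DEX mice raised Il1a (LFC 2.14 ± 0.38, edgeR FDR = 0.00044). DEX in NaCl mice gave an LFC of -1.20 ± 0.38 (edgeR FDR = 0.051), which fell below the threshold without NaCl/PBS mouse 1 (edgeR FDR = 0.0046) or without FeSO4/DEX mouse 1, and under DESeq2 (adjusted p = 0.014). Without NaCl/PBS mouse 2, the highest of its group, that LFC was -0.67 ± 0.34 (edgeR FDR = 0.25). FeSO4 in PBS mice gave 0.46 ± 0.35 (edgeR FDR = 0.29) and, without NaCl/PBS mouse 2, 0.98 ± 0.33 (edgeR FDR = 0.023). After FeSO4, DEX gave an LFC of 0.48 ± 0.35 (edgeR FDR = 0.82). The long noncoding gene Gm14023 overlaps 13.7% of the exon bases of Il1a on the opposite strand, and Il1bos overlaps 3.65% of those of Il1b. Which strand the deposited counts used is not given in the sources used here, so how reads in the shared bases were assigned is not known. The same holds for Gm20319, which overlaps 9.32% of the exon bases of Il1rap.

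Il1rn, the receptor antagonist, had 145, 235 and 131 normalized counts in the NaCl/PBS mice, against 435, 299 and 487 in the NaCl/DEX mice. The FeSO4/PBS mice had 289, 366 and 238, and the FeSO4/DEX mice 105, 256 and 103. The NaCl/DEX mice lay above the NaCl/PBS mice, and the FeSO4/DEX mice below the NaCl/DEX mice. After DEX in NaCl mice, Il1rn rose (LFC 1.26 ± 0.32, edgeR FDR = 0.018). The call was lost without NaCl/PBS mouse 1 or 3 or without NaCl/DEX mouse 1 or 3, at an LFC of 1.11 to 1.57 and an edgeR FDR of at most 0.083 over all 12 fits that left out a mouse. After FeSO4, DEX gave an LFC of -0.97 ± 0.33 (edgeR FDR = 0.71, unadjusted p = 0.0115), and the groups overlapped through FeSO4/DEX mouse 2.

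FeSO4 in DEX mice lowered Il1rn (LFC -1.41 ± 0.33, edgeR FDR = 0.0034), and in PBS mice FeSO4 raised it (LFC 0.82 ± 0.32, edgeR FDR = 0.046). The rise in PBS mice was close to the threshold. It was lost without NaCl/PBS mouse 1 or 3, NaCl/DEX mouse 1 or 3, or FeSO4/PBS mouse 1 or 2 (LFC 0.64 to 1.12, edgeR FDR up to 0.153), and by library size alone it was 0.50 (edgeR FDR = 0.18).

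The balance of antagonist to agonist mRNA was followed as the share of Il1rn among the reads of Il1a, Il1b and Il1rn, in which library scaling cancels. The share was not corrected for exon length, which is 5536 bases for Il1rn, 3486 for Il1a and 2601 for Il1b. Il1rn took 63.0%, 37.4% and 48.7% of these reads in the NaCl/PBS mice, against 89.0%, 86.9% and 90.3% in the NaCl/DEX mice. In the FeSO4/PBS mice it took 54.7%, 55.6% and 49.3%, and in the FeSO4/DEX mice 23.4%, 51.6% and 31.9%. The NaCl/DEX mice had the highest shares of all mice and varied least, with a mean of 88.7% ± 1.72 (SD, n = 3), where the FeSO4/DEX mean was 35.7% ± 14.5. The reads behind a share numbered 273 to 672. The widest of the exact 95% binomial intervals, which cover counting error only, ran from 26.4% to 37.8%, in FeSO4/DEX mouse 3. The difference was 39.03 points for DEX in NaCl mice and -53.1 points for FeSO4 in DEX mice, and in both the groups did not overlap (exact two-sided permutation test, p = 0.1, the smallest that 3 against 3 allows, adjusted 0.16 over 8 tests of shares). For DEX in FeSO4 mice the difference was -17.5 points (exact permutation p = 0.2, adjusted 0.23), and for FeSO4 in PBS mice 3.49 points (exact permutation p = 0.7, adjusted 0.7).

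**Figure D2:**
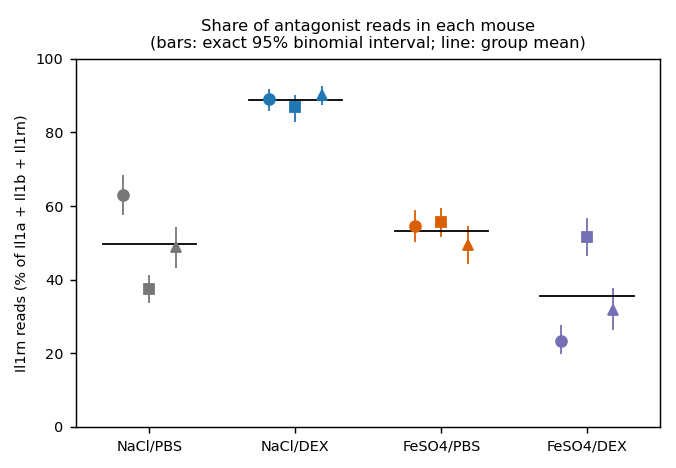
Share of Il1rn among the reads of Il1a, Il1b and Il1rn (y axis, percent) in each mouse, by group (x axis), with exact 95% binomial intervals as bars and the group mean as a line. The 3 NaCl/DEX mice lie between 86.9% and 90.3%, above the 23.4% to 63.0% of the other 9 mice.

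Il1r1, the signalling receptor, had 803, 1934 and 899.8 normalized counts in the NaCl/PBS mice, 2918, 3446 and 2905 in the NaCl/DEX mice, 5860.3, 4875 and 5754 in the FeSO4/PBS mice and 4130.3, 5333 and 3046 in the FeSO4/DEX mice. All 9 treated mice lay above the NaCl/PBS mice. FeSO4 in PBS mice raised Il1r1 (LFC 2.18 ± 0.28, edgeR FDR = 2.4e-05), a ratio of means of 4.53, and it had the largest LFC in size of the 10 members in that comparison. DEX in NaCl mice raised it as well (LFC 1.35 ± 0.28, edgeR FDR = 0.0048), with a ratio of 2.55. DEX in FeSO4 mice gave an LFC of -0.40 ± 0.27 (edgeR FDR = 0.82) and FeSO4 in DEX mice 0.43 ± 0.27 (edgeR FDR = 0.22). Without NaCl/PBS mouse 2 the rises were 2.69 ± 0.21 after FeSO4 and 1.87 ± 0.21 after DEX, and both calls held in every fit that left out a mouse.

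Il1rap, the accessory chain, stayed between 1609.7 and 2295 normalized counts in all 12 mice. The FeSO4/PBS mice, at 1699 to 1844, lay just below the NaCl/PBS mice, at 1878 to 1987. The LFCs of Il1rap were -0.11 ± 0.12 for FeSO4 in PBS mice (edgeR FDR = 0.46), -0.15 ± 0.12 for DEX in NaCl mice (edgeR FDR = 0.49), 0.19 ± 0.12 for DEX in FeSO4 mice (edgeR FDR = 0.81) and 0.23 ± 0.12 for FeSO4 in DEX mice (edgeR FDR = 0.15). A span of 2 SE to either side ran from -0.40 to 0.10 for DEX in NaCl mice, and the LFC of Il1r1 in that comparison, 1.35, lay outside it. By library size alone Il1rap was lower after FeSO4 in PBS mice (LFC -0.43, edgeR FDR = 0.0066), close to the median shift of all genes under that scaling, and without FeSO4/DEX mouse 1 it was higher after FeSO4 in DEX mice (LFC 0.36, edgeR FDR = 0.025).

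Il18, the other cytokine that caspase-1 activates, had 199.96, 165 and 221 normalized counts in the NaCl/PBS mice, against 178, 150.4 and 206 in the NaCl/DEX mice. It had 255, 277 and 195 in the FeSO4/PBS mice and 230.1, 309.9 and 377 in the FeSO4/DEX mice. FeSO4 in DEX mice raised Il18 (LFC 0.77 ± 0.20, edgeR FDR = 0.0064), with no overlap between the groups. FeSO4 in PBS mice gave 0.31 ± 0.20 (edgeR FDR = 0.20), with overlap, and -0.01 by library size alone. In NaCl mice DEX gave an LFC of -0.13 ± 0.20 for Il18 (edgeR FDR = 0.73), and after FeSO4 it gave 0.33 ± 0.20 (edgeR FDR = 0.80).

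Il18bp, the soluble protein that neutralises IL-18, had 339, 401 and 348 normalized counts in the NaCl/PBS mice, 323, 325 and 248 in the NaCl/DEX mice, 227, 191 and 212 in the FeSO4/PBS mice and 219, 178 and 216 in the FeSO4/DEX mice. Every FeSO4-injected mouse lay below every mouse that had received NaCl. FeSO4 lowered Il18bp in PBS mice (LFC -0.79 ± 0.14, edgeR FDR = 0.00042) and in DEX mice (LFC -0.54 ± 0.15, edgeR FDR = 0.0081), and Il18bp alone among the members was called in the same direction in both of these comparisons, which share no mouse. DEX gave -0.28 ± 0.14 in NaCl mice (edgeR FDR = 0.23) and -0.03 ± 0.15 in FeSO4 mice (edgeR FDR = 0.98). The summed Kupffer cell markers given above fell over the same comparisons, with 8 of 12 called lower in PBS mice and 7 of 12 in DEX mice. Of all tested genes, 27.3% and 20.9% were called lower there. The part of Kupffer cells in the fall of Il18bp was not tested. Numa1 overlaps 8.98% of the exon bases of Il18bp on the opposite strand.

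Nlrp3, the sensor of the inflammasome, had 32.4, 55.2 and 26.2 normalized counts in the NaCl/PBS mice, against 7.51, 7.52 and 5.03 in the NaCl/DEX mice, from 5 to 8 reads each. The FeSO4/PBS mice had 36.3, 36.6 and 34.4, and the FeSO4/DEX mice 30.0, 27.2 and 21.4. As for Il1b, the NaCl/DEX mice lay below all 9 others. Nlrp3 fell after DEX in NaCl mice (LFC -2.47 ± 0.38, edgeR FDR = 0.00055), a level 5.67-fold lower by the means. After FeSO4, DEX gave an LFC of -0.45 ± 0.33 (edgeR FDR = 0.83). FeSO4 in DEX mice raised Nlrp3 (LFC 1.95 ± 0.39, edgeR FDR = 0.0012), and in PBS mice FeSO4 gave -0.08 ± 0.32 (edgeR FDR = 0.86), or 0.29 without NaCl/PBS mouse 2.

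Casp1, which encodes caspase-1, had 61.9, 77.6 and 70.3 normalized counts in the NaCl/PBS mice, 45.1, 22.6 and 27.2 in the NaCl/DEX mice, 54.4, 37.6 and 30.6 in the FeSO4/PBS mice and 32.9, 42.1 and 30.9 in the FeSO4/DEX mice. The NaCl/PBS mice lay above all 9 treated mice. Casp1 fell after DEX in NaCl mice (LFC -1.15 ± 0.30, edgeR FDR = 0.019), and after FeSO4 in PBS mice (LFC -0.76 ± 0.29, edgeR FDR = 0.040). The first call was lost without NaCl/PBS mouse 2 or 3 or NaCl/DEX mouse 2 or 3 (LFC -1.48 to -0.95, edgeR FDR up to 0.089). The second was lost without NaCl/PBS mouse 1, 2 or 3 or FeSO4/PBS mouse 2 or 3 (LFC -1.02 to -0.59, edgeR FDR up to 0.136). The other LFCs of Casp1 were -0.23 ± 0.31 for DEX in FeSO4 mice (edgeR FDR = 0.92) and 0.16 ± 0.31 for FeSO4 in DEX mice (edgeR FDR = 0.71), where library size alone gave -0.036.

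Gsdmd, which encodes gasdermin D, had 577, 497 and 549 normalized counts in the NaCl/PBS mice, 464, 477 and 438 in the NaCl/DEX mice, 538, 401 and 315 in the FeSO4/PBS mice and 429, 383 and 427 in the FeSO4/DEX mice. In the 4 comparisons it had LFCs between -0.37 and -0.02, none of them called. The nearest was FeSO4 in PBS mice (LFC -0.37 ± 0.16, edgeR FDR = 0.058), which passed the threshold without FeSO4/PBS mouse 1 (LFC -0.59, edgeR FDR = 0.0014), with library size alone (LFC -0.70, edgeR FDR = 0.0015), without a filter (edgeR FDR = 0.047), with at least 10 counts in every library (edgeR FDR = 0.046) and with the replicate block (edgeR FDR = 0.045). The 3 NaCl/PBS mice lay above all NaCl/DEX mice, and the NaCl/DEX mice above all FeSO4/DEX mice, but neither difference was called (LFC -0.24 ± 0.15 and -0.15 ± 0.16, edgeR FDR = 0.37 and 0.46).

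**Figure D3:**
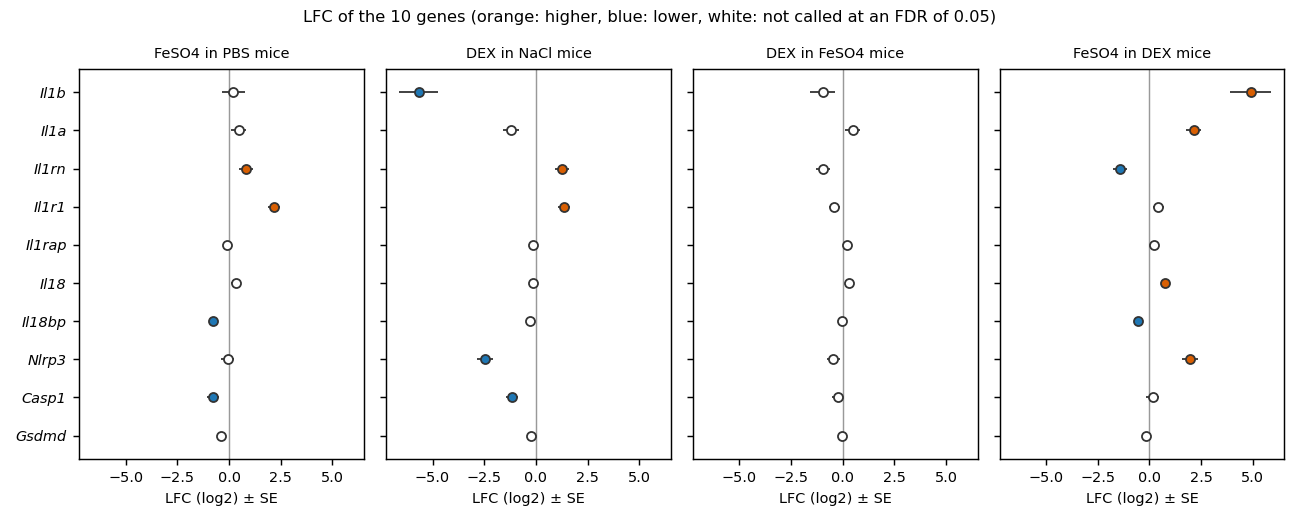
LFC (x axis, log2 scale) of the 10 genes (y axis) in the 4 comparisons, with SE bars, filled in orange where called higher and in blue where called lower at an edgeR FDR of 0.05 or less. Il1b and Nlrp3 lie far to the left for DEX in NaCl mice and to the right for FeSO4 in DEX mice, and no point is filled for DEX in FeSO4 mice.

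Whether the DEX response differed between NaCl and FeSO4 mice was tested as an interaction in the same model, which is also the test of whether the FeSO4 effect differed between PBS and DEX mice. It called 4 of the 10 members, 2 higher and 2 lower, where 6.18% of all tested genes were called, 2.99% higher and 3.20% lower. Il1rn (-2.23 ± 0.46, edgeR FDR = 0.011) and Il1r1 (-1.75 ± 0.39, edgeR FDR = 0.016) had a lower LFC after DEX in FeSO4 mice than in NaCl mice. For Il1b (4.70 ± 1.20, edgeR FDR = 0.034) and Nlrp3 (2.03 ± 0.51, edgeR FDR = 0.030) the LFC after DEX was higher in FeSO4 mice, that is nearer to 0. The calls of Il1rn and Il1r1 held in all 12 fits that left out a mouse. The call of Il1b was lost without NaCl/DEX mouse 1, 2 or 3, FeSO4/PBS mouse 3 or FeSO4/DEX mouse 2 or 3 (3.21 to 5.32, edgeR FDR up to 0.099, the lowest value being that without NaCl/PBS mouse 2), and that of Nlrp3 without NaCl/PBS mouse 2, NaCl/DEX mouse 1, 2 or 3, FeSO4/PBS mouse 3 or FeSO4/DEX mouse 1 or 2 (1.65 to 2.22, edgeR FDR up to 0.080). Il1a gave 1.68 ± 0.51 (edgeR FDR = 0.072), called without NaCl/PBS mouse 1 (edgeR FDR = 0.010), and the remaining 5 members had an edgeR FDR between 0.24 and 0.63.

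Levels were compared between genes as normalized counts per kb of exon. In the NaCl/PBS mice the order was Gsdmd (180.1 ± 13.6, SD, n = 3), Il1r1 (178 ± 91.9), Il1rap (127 ± 3.58), Il18bp (73.1 ± 6.73), Il18 (64.9 ± 9.47), Il1b (35.6 ± 39.9), Il1a (32.4 ± 19.0), Il1rn (30.7 ± 10.2), Casp1 (22.3 ± 2.51) and Nlrp3 (9.35 ± 3.76). Only Il1rap against Il18bp and Casp1 against Nlrp3 were neighbours whose 3 mice did not overlap. In the NaCl/DEX mice Il1r1 came first (453 ± 45.3), Il1rn moved up to the fourth place (73.5 ± 17.6) and Il1b to the last (0.64 ± 0.57), each of Il1r1, Nlrp3 and Il1b apart from its neighbours. In the FeSO4/PBS mice Il1r1 stood at 806 ± 79.4 per kb, apart from Gsdmd (139 ± 37.5) and Il1rap (117 ± 5.11), which overlapped each other, while Il18, Il1rn, Il1a, Il18bp and Il1b followed with overlapping neighbours between 80.5 and 40.4. The FeSO4/DEX mice again had Il1r1 first (612 ± 168) and Casp1 (11.3 ± 1.91) and Nlrp3 (6.45 ± 1.08) last, each apart from the gene before it.

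The other genes of the pathway were read from a pair of lists. Of 31 other genes of the IL-1 family and its receptor signalling, 30 were in the table and 21 were tested. FeSO4 in PBS mice called 9 of these 21 higher and 3 lower (57.1%, with a median LFC of 0.37), and FeSO4 in DEX mice 8 higher and 1 lower. DEX in NaCl mice called 1 higher and 1 lower (9.52%). Of 32 other genes of inflammasomes and pyroptosis, 28 were tested, of which FeSO4 in PBS mice called 6 higher and 7 lower (46.4%, median LFC -0.13), FeSO4 in DEX mice 6 higher and 5 lower, and DEX in NaCl mice 2 higher and 2 lower (14.3%). In either direction together these shares were near those of all genes. By direction, FeSO4 called 42.9% of the first list higher and 14.3% lower in PBS mice, beside 27.2% and 27.3% of all genes, and 38.1% higher and 4.76% lower in DEX mice, beside 22.4% and 20.9%. For the second list these were 21.4% and 25.0% in PBS mice and 21.4% and 17.9% in DEX mice. DEX in FeSO4 mice called 0 genes of either list by edgeR, with 2 and 0 genes at an unadjusted p under 0.05 and 0 by DESeq2. The interaction called 0 genes of the first list by edgeR, with 2 at an unadjusted p under 0.05 and 0 by DESeq2, and 1 of the second, Nek7.

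Il1r2, the decoy receptor, changed most. Without iron there were 4, 5 and 4 Il1r2 reads per library after PBS and 0, 2 and 4 after DEX, whereas there were 165, 121 and 91 in the FeSO4/PBS mice and 85, 53 and 61 in the FeSO4/DEX mice. FeSO4 raised it in PBS mice (LFC 5.19 ± 0.39, edgeR FDR = 1.6e-07) and in DEX mice (LFC 5.15 ± 0.45, edgeR FDR = 1.0e-06). Il1r2 passed the filter on low counts only through the FeSO4 groups, where it is high, so these FDRs are given as a description. With so few reads in the NaCl/DEX mice, the latter LFC depends on the prior count and was 6.07 without NaCl/DEX mouse 3. By summed reads, 199 against 6, the level was 38.0-fold higher, with a 95% counting interval of 17.1 to 105. Of the reads of Il1r1 and Il1r2 together, Il1r2 took 0.24% to 0.37% in NaCl/PBS mice, 0% to 0.14% in NaCl/DEX mice, 1.98% to 2.76% in FeSO4/PBS mice and 1.33% to 2.33% in FeSO4/DEX mice, so that reads of the signalling receptor outnumbered those of the decoy in every mouse. These shares were not corrected for the length of the genes. The neutrophil markers, which had risen in the same comparisons, belong to cells that are known to carry Il1r2, and their part in this was not tested.

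Il18rap, the accessory chain of the IL-18 receptor, had 6.0 to 8.5 normalized counts in the mice that had received NaCl and 18.4 to 59.0 after FeSO4. It rose in PBS mice (LFC 2.82 ± 0.39, edgeR FDR = 3.7e-05) and in DEX mice (LFC 2.26 ± 0.41, edgeR FDR = 0.00052). Like Il1r2, Il18rap passed the filter only through the FeSO4 groups. Il18r1, the ligand-binding chain, had 1 to 14 reads per library and was not tested. Il1rl1, the receptor of IL-33, had 0 to 3 reads and was not tested either. Il33 itself was called in no comparison, with LFCs of -0.72 to 0.40. Sigirr, an inhibitory receptor of the family, fell after FeSO4 in PBS mice (LFC -0.71 ± 0.13, edgeR FDR = 0.00050).

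Of the adaptors and kinases, Myd88 rose after FeSO4 in PBS mice (LFC 1.41 ± 0.30, edgeR FDR = 0.0011), although Acaa1a overlaps 16.2% of its exon bases on the opposite strand. Also called higher there were Traf6, the ubiquitin ligase of the pathway (LFC 1.21 ± 0.13, edgeR FDR = 4.4e-06), Irak2 (LFC 1.07 ± 0.21, edgeR FDR = 0.00072), Tollip, an inhibitor of Irak signalling (LFC 0.49 ± 0.10, edgeR FDR = 0.0010), and Irak3, a kinase homologue that dampens the signal (LFC 1.37 ± 0.45, edgeR FDR = 0.019). Irak1 had LFCs between 0.02 and 0.08 in the 4 comparisons and Irak4 between -0.45 and -0.04, none called. In DEX mice FeSO4 raised Irak2 (LFC 1.80), Traf6 (1.01), Myd88 (1.00) and Tollip (0.27). Irak2 was the one gene of this list that DEX in NaCl mice lowered (LFC -0.82 ± 0.22, edgeR FDR = 0.022). The call of Irak3 was lost without NaCl/PBS mouse 1 or 3 or FeSO4/PBS mouse 1, that of Myd88 in DEX mice without NaCl/DEX mouse 1 or FeSO4/DEX mouse 2, that of Irak2 after DEX without any NaCl/PBS mouse or NaCl/DEX mouse 2 or 3, and that of Tollip in DEX mice in 10 of the 12 fits that left out a mouse (edgeR FDR up to 0.083, 0.067, 0.091 and 0.154). Those 10 left out any mouse but FeSO4/PBS mouse 1 or 2. Without NaCl/PBS mouse 2 the LFC of Irak3 was 2.22.

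Among inflammasome genes, Pycard, the adaptor ASC, fell after FeSO4 in PBS mice (LFC -2.58 ± 0.57, edgeR FDR = 0.0016), from 36.0, 31.8 and 29.6 normalized counts in the NaCl/PBS mice to 7.06, 7.12 and 1.28 in the FeSO4/PBS mice. The NaCl/DEX mice had 10.7 to 16.9 of Pycard (LFC -1.32, edgeR FDR = 0.10), and the FeSO4/DEX mice 0.97 to 10.7. Gm45205 overlaps 11.5% of the exon bases of Pycard on the opposite strand. Naip6, a sensor of the Nlrc4 inflammasome, fell after FeSO4 in PBS mice (LFC -2.64 ± 0.47, edgeR FDR = 0.00036) and in DEX mice (LFC -1.42 ± 0.45, edgeR FDR = 0.020). Reads that match several of the near-identical Naip genes cannot be assigned to 1 of them with certainty. Gbp5, a guanylate-binding protein that interferon induces, fell after FeSO4 in PBS mice (LFC -1.96, edgeR FDR = 0.00020) and after DEX in NaCl mice (LFC -1.23, edgeR FDR = 0.016), and FeSO4 in DEX mice gave -0.50 (edgeR FDR = 0.26). Nlrc4 was called in no comparison, and Aim2, a DNA sensor, was called after FeSO4 in DEX mice (LFC 0.86, edgeR FDR = 0.038).

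Txnip, a redox protein known to bind Nlrp3, rose from 1412 to 3546 normalized counts in the NaCl/PBS mice to 10483 to 25012 in the FeSO4/PBS mice (LFC 3.12 ± 0.37, edgeR FDR = 1.2e-05) and rose to a like degree in DEX mice (LFC 3.18 ± 0.38, edgeR FDR = 1.5e-05). On the opposite strand, Gm15441 covers 29.3% of the exon bases of Txnip. Nek7, the kinase that licenses Nlrp3, had 1059.7 to 1118 normalized counts in NaCl/PBS mice, 2049 to 2457 in NaCl/DEX mice, 1700.4 to 2223 in FeSO4/PBS mice and 1732 to 2054 in FeSO4/DEX mice. Both DEX in NaCl mice (LFC 1.05 ± 0.12, edgeR FDR = 5.7e-05) and FeSO4 in PBS mice (LFC 0.80 ± 0.12, edgeR FDR = 8.7e-05) raised it, opposite to Nlrp3 after DEX. Nlrp12, which restrains inflammatory signalling, was likewise higher after DEX in NaCl mice (LFC 1.16 ± 0.36, edgeR FDR = 0.049) and after FeSO4 in PBS mice (LFC 1.44 ± 0.37, edgeR FDR = 0.0043).

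Casp4, the caspase of the noncanonical inflammasome, fell after DEX in NaCl mice (LFC -1.21 ± 0.33, edgeR FDR = 0.026) and rose after FeSO4 in PBS mice (LFC 0.74 ± 0.30, edgeR FDR = 0.048) and in DEX mice (LFC 1.75 ± 0.33, edgeR FDR = 0.00073). Ninj1, which ruptures the membrane of dying cells, and Gsdme, a gasdermin that caspase-3 cleaves, rose after FeSO4 in DEX mice (LFC 0.31 and 1.19, edgeR FDR = 0.030 and 0.029). Pals2 overlaps 24.03% of the exon bases of Gsdme on the opposite strand. Several of these calls did not hold when a mouse was left out, whichever of several mice that was. Over the 12 fits that left out a mouse, Gbp5 after DEX was lost without NaCl/PBS mouse 2 or NaCl/DEX mouse 1 or 2, Casp4 after DEX without NaCl/PBS mouse 2 or NaCl/DEX mouse 1 or 3, and Naip6 in DEX mice without NaCl/DEX mouse 2 or FeSO4/DEX mouse 2 or 3 (edgeR FDR up to 0.086, 0.112 and 0.063). Without FeSO4/DEX mouse 1 the LFC of Naip6 in DEX mice was -2.19. In DEX mice, Aim2 was lost without NaCl/PBS mouse 1 or 3, NaCl/DEX mouse 1 or 3 or FeSO4/DEX mouse 1 or 2, Ninj1 without NaCl/PBS mouse 1 or 3, NaCl/DEX mouse 1 or 2 or FeSO4/DEX mouse 2 or 3, and Gsdme without NaCl/DEX mouse 2 or 3 or FeSO4/DEX mouse 1 or 3 (edgeR FDR up to 0.159, 0.178 and 0.109). The rise of Casp4 in PBS mice was lost without NaCl/PBS mouse 1 or 3, NaCl/DEX mouse 3, FeSO4/PBS mouse 1 or 2 or FeSO4/DEX mouse 1 or 3 (edgeR FDR up to 0.159). The rise of Nlrp12 after DEX was lost without NaCl/PBS mouse 1 or 3, any NaCl/DEX mouse, FeSO4/PBS mouse 3 or FeSO4/DEX mouse 1 (edgeR FDR up to 0.183).

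**Figure D4:**
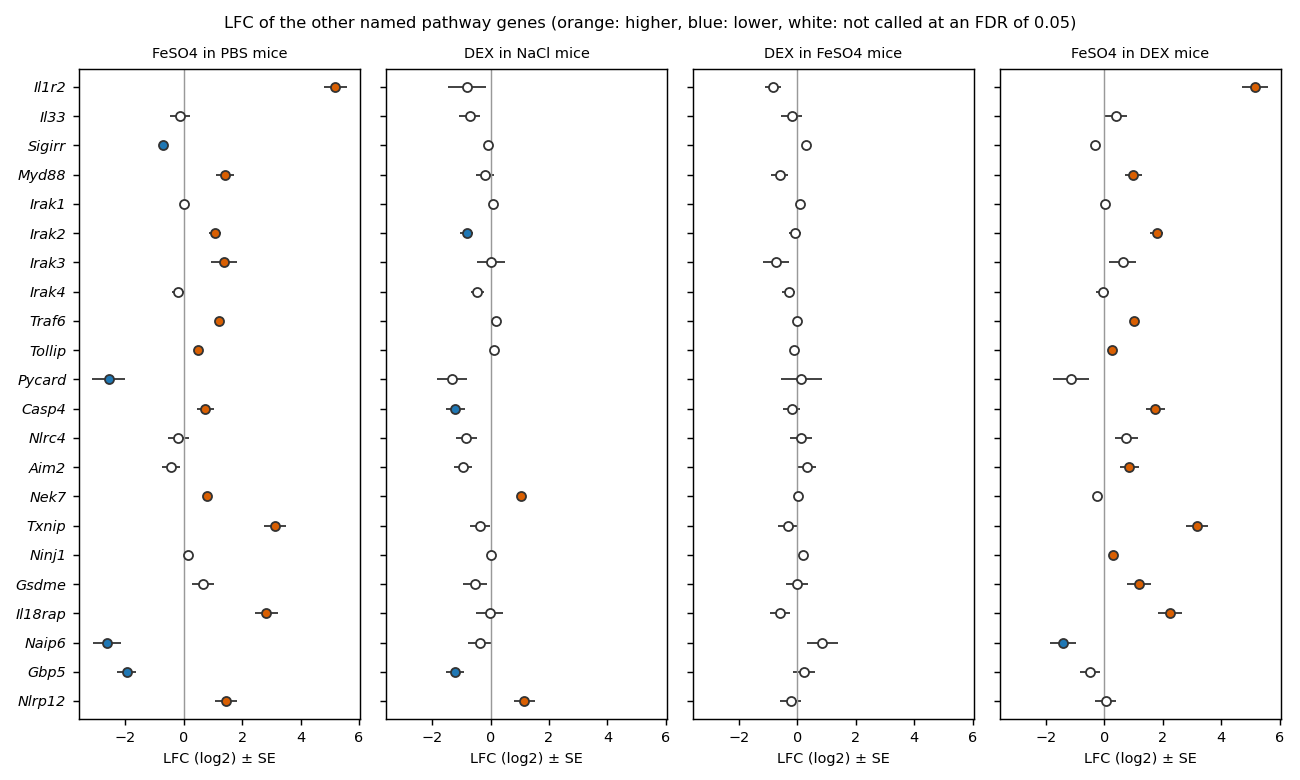
LFC (x axis, log2 scale) of 22 other genes of the pathway (y axis) in the 4 comparisons, with SE bars, filled in orange where called higher and in blue where called lower at an edgeR FDR of 0.05 or less. Il1r2 and Txnip lie farthest to the right in both FeSO4 comparisons, at 5.19 and 3.12 in PBS mice and 5.15 and 3.18 in DEX mice.

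Of the list genes called after FeSO4, many were called in both PBS and DEX mice, comparisons that share no sample. In the list of the IL-1 family and its signalling, 9 genes were called in the same direction in both, which is 75.0% of the 12 called in PBS mice and 100% of the 9 called in DEX mice. In the list of inflammasomes and pyroptosis there were 7, 53.8% of 13 and 63.6% of 11. Over all tested genes the shares were 62.4% and 78.5%. Of the members, Il18bp was the 1 called in the same direction in both, 25.0% of the 4 called in PBS mice and 16.7% of the 6 called in DEX mice, and Il1rn was called in opposite directions.

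For Il1r1 and Il1rap, the members with the highest mean normalized counts, the genes with the most similar profile over the 12 libraries were sought, by the root mean square difference of log2 normalized counts after centring each gene. Nearest to Il1r1 were Sdsl (0.29), Nolc1 (0.29), Mid1 (0.31), Cebpb (0.32) and Pprc1 (0.33). Each of these 5 was called higher after FeSO4 in PBS mice (LFC 2.00 to 2.39) and after DEX in NaCl mice (LFC 0.96 to 1.33), as Il1r1 was, which follows from their choice by likeness over the same 12 libraries. Among the nearest to Il1rap were Pigs, Cnnm2, Hmbox1 and Lars2 (0.090 to 0.097), none of which was called in either comparison, again by that choice.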

How the data were processed

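RNA was extracted from the livers of 12 mice, and TruSeq stranded mRNA libraries were read single-end on an Illumina NovaSeq. Raw counts per Ensembl gene were deposited by the authors, who checked reads with FastQC and aligned them to mm39 with STAR 2.7.10b, counting during alignment. Which strand column was taken is not given in the sources used here. The 55414 genes were named by GENCODE (54749 had a symbol), and 30401 had no count.

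Groups were taken from the sample labels. Counts were filtered with filterByExpr, scaled by TMM and fitted in edgeR 4.0.16 (R 4.3.3, limma 3.58.1) by quasi-likelihood, in 1 model of 4 group means with 5 contrasts (prior count 0.125, biological coefficient of variation 0.169, prior degrees of freedom 5.93). The SE of an LFC was not fitted directly but taken as the size of the LFC divided by the square root of its quasi-likelihood F statistic. To give normalized counts, each count was divided by its TMM-scaled library size and multiplied by the mean of these sizes over the 12 libraries. With 16335651 to 23827340 reads per library, genes at a few reads are limited by counting error. Mice of a group differed by 16.8 to 81.4 chi-square units per gene, more than sampling noise. The p-values set a difference of groups against the spread between mice of a group, estimated over all 12 libraries. The labels do not say whether the mice of a group were handled together. If they were, effects of handling cannot be told apart from those of treatment.

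Described were the 10 members, 20 pathway genes fixed by name, up to 4 list genes per comparison with the largest called LFC whose groups did not overlap and whose mean normalized count reached 20 in the higher group, and the 5 genes most alike to each of the 2 most abundant members. For likeness, 0.5 was added before log2, and 1 of these genes is not reported here. Members and lists were chosen with earlier results of these data known. Alternatives were DESeq2 1.42.0, DESeq2 size factors, library size alone, no filter, at least 10 counts in every library, a replicate block, only the libraries compared, an LFC beyond 1, and leaving out each mouse. The neutrophil sum without Lcn2 was added after its values were seen. The code was tested on simulated data, and shares, intervals and figures used Python 3.11.15 with numpy 2.4.6, scipy 1.17.1, pandas 2.3.3 and matplotlib 3.10.9.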

Additional observations from a re-analysis of the deposited data

Results flagged for a closer look

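For 5 genes the LFC after DEX differed between FeSO4 and NaCl mice in the interaction test of the edgeR model. The difference, FeSO4 mice minus NaCl mice, was 4.70 ± 1.20 for Il1b (edgeR FDR = 0.034), 2.03 ± 0.51 for Nlrp3 (edgeR FDR = 0.030), -2.23 ± 0.46 for Il1rn (edgeR FDR = 0.011), -1.75 ± 0.39 for Il1r1 (edgeR FDR = 0.016) and -1.04 ± 0.17 for Nek7 (edgeR FDR = 0.0025). The same values are the difference of the FeSO4 response between DEX and PBS mice. With 3 mice a group, no group was tested for an outlying mouse.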

How the results depend on the processing

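Of 380 values of the 10 genes under the alternatives that kept all mice, 357 kept direction and side of the threshold, 7 lost a call, 13 gained one and 3 changed sign, and of 600 values with a mouse left out these were 551, 32, 7 and 10. No value that changed sign was called with all mice in the usual settings. For FeSO4 in PBS mice, the count of members called higher was 1 when an LFC beyond 1 was required, with library size alone and with at least 10 counts in every library, and the count called lower was 0 with an LFC beyond 1 and 4 with library size alone. For DEX in FeSO4 mice, 1 member, Il1rn, was called lower without a filter (edgeR FDR = 4.09e-05), where 170 of 25013 genes were called. For FeSO4 in DEX mice, 2 members were called higher with at least 10 counts in every library and 1 lower with an LFC beyond 1. In the interaction, 0 members were called higher with at least 10 counts in every library, since Il1b and Nlrp3 were then not tested. With library size alone the LFC was -0.11 for Il1b and -0.0092 for Il18 after FeSO4 in PBS mice, and -0.036 for Casp1 after FeSO4 in DEX mice.

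With each mouse left out in turn, the members called higher and lower numbered 1 to 4 and 1 to 3 for FeSO4 in PBS mice, 1 to 2 and 2 to 4 for DEX in NaCl mice, 0 and 0 for DEX in FeSO4 mice, 4 to 5 and 2 for FeSO4 in DEX mice, and 0 to 3 and 2 for the interaction. LFCs that changed sign ranged from -0.22 to 1.68 for Il1b and from -0.28 to 0.29 for Nlrp3 after FeSO4 in PBS mice, from -0.10 to 0.039 for Il18bp, -0.40 to 0.014 for Casp1 and -0.19 to 0.18 for Gsdmd after DEX in FeSO4 mice, and from -0.040 to 0.50 for Casp1 after FeSO4 in DEX mice. Apart from the tests on fewer genes, the cause was not tested.

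Deviations of same-numbered mice correlated at -0.17 to 0.21, and those of mice with different numbers at -0.32 to 0.28. No pairing by replicate number was seen, but 3 mice a group cannot settle whether there was any. With the replicate block, 2 members were called higher and 3 lower for FeSO4 in PBS mice (Gsdmd being added, LFC -0.38, edgeR FDR = 0.045), and the counts of the other comparisons were as without it. Of the pathway genes, the calls of Tollip, Aim2 and Ninj1 after FeSO4 in DEX mice were lost under it. Genes with few reads, such as Il1b and Nlrp3 in NaCl/DEX mice, are limited by depth.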

Other observations

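Some list genes outside the rule for naming, picked after their values were seen, were called in the same direction by FeSO4 in PBS mice and in DEX mice. In the signalling list these were Tab1 and Tab2, which couple Traf6 to the kinase Tak1, both higher, and Ube2n, a ubiquitin-conjugating enzyme that works with Traf6, which was lower. In the inflammasome list Casp8, the initiator caspase of death receptors, was higher, and Nlrp6, Naip2 and Naip5, sensors of the family, were lower. Reads of Naip2 and Naip5 can be split with their near-identical copies.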
